A study of Mus musculus with 4 samples.

Results

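Day 3 embryoid bodies of the mouse embryonic stem cell line CGR8 were compared with the same line at day 0, undifferentiated, by hybridising total RNA of both on spotted arrays with 2 channels. Embryoid bodies are round aggregates of differentiating stem cells, formed here in hanging drops. The arrays were chosen by their source label, and they are 2 of the 4 arrays in the series, the other 2 setting day 10 embryoid bodies against day 0. The second day 3 array is labelled a technical replicate, so the pair counted as 1 replicate, its SD is technical error alone, and no significance test was possible. Whether labelling, hybridisation or only scanning was repeated, not given in the sources used here, decides which steps that error covers. CGR8 is a single established line, the labels give no other genotype or treatment, and the day 0 RNA is the only control.

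Of the 14386 genes named on the array, 13707 had a value on both day 3 arrays and are described here, 653 had a value on a single array and 26 on neither. Each value is a log2 ratio between the channels after centring each array on the median of its spots, averaged over the spots of a gene. The sign is the deposited one. With the dyes and the numerator channel not given in the sources used here, values are described as lying on the positive or the negative side, and neither side is called a rise at day 3. In bulk RNA, fewer cells of a type and less RNA per cell cannot be told apart.

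Stem cells in the undifferentiated state are held by a circuit of transcription factors around Oct4 (Pou5f1), Sox2 and Nanog, with a further layer of naive-state genes such as Esrrb, Klf4 and Zfp42. When the cytokine LIF is withdrawn and the cells aggregate, the naive genes are lost first, the cells pass through a state like the primed epiblast marked by Fgf5, Otx2 and Dnmt3b, and primitive streak genes such as T, Mixl1 and Mesp1 follow. These steps come with changes in metabolism and in the machinery of protein synthesis, whose genes are among the most abundantly transcribed in stem cells.

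The arrays held 40348 and 41386 spots with a value out of 46128, and the number of arrays limits the precision. Across the 13707 genes the arrays correlated with Pearson's r = 0.271 and Spearman's rho = 0.335, which describes genes and not replicates, and the SD of a single array was 0.616. Agreement followed brightness, estimated by recovering the smallest pair of whole numbers with the deposited ratio and taking their geometric mean. This is a lower bound on the signal only where the deposited value is a ratio of whole-number intensities. Such pairs with numbers up to 10000 were found for 60.5% and 60.8% of the values of the arrays. The rest needed larger numbers and so count as bright, whatever their signal. A high brightness can therefore also mean that no small pair was found. From the dimmest to the brightest 25% of genes, r was 0.0289, 0.178, 0.349 and 0.757, and the SD of an array was 0.823, 0.671, 0.55 and 0.291. Most genes were printed as a pair of spots, and the pairs of an array correlated with r = 0.306 on the first array and 0.355 on the second.

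A gene was called beyond 2-fold where each array's log2 ratio was 1 or more, or -1 or less, with the sign shared by both. There were 243 such genes on the positive side (1.77% of those measured) and 141 on the negative side (1.03%), together 384 genes or 2.8%. Another 102 genes (0.744%) were beyond 2-fold on opposite sides of the arrays, which is 26.6% of the number called and was taken as a measure of technical error. Those opposite calls lay mainly among dim genes, 61 in the dimmest 25% and 3 in the brightest, where 94 positive and 47 negative genes were called. Next to the limit, Rpl30-ps2 was inside at 1.001 and 1.16 and Tmem50b outside at 0.9985 and 1.17; Tfb2m was inside at -1.001 and -1.02 and Gbf1 outside at -1.28 and -0.9993.

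**Figure D1:**
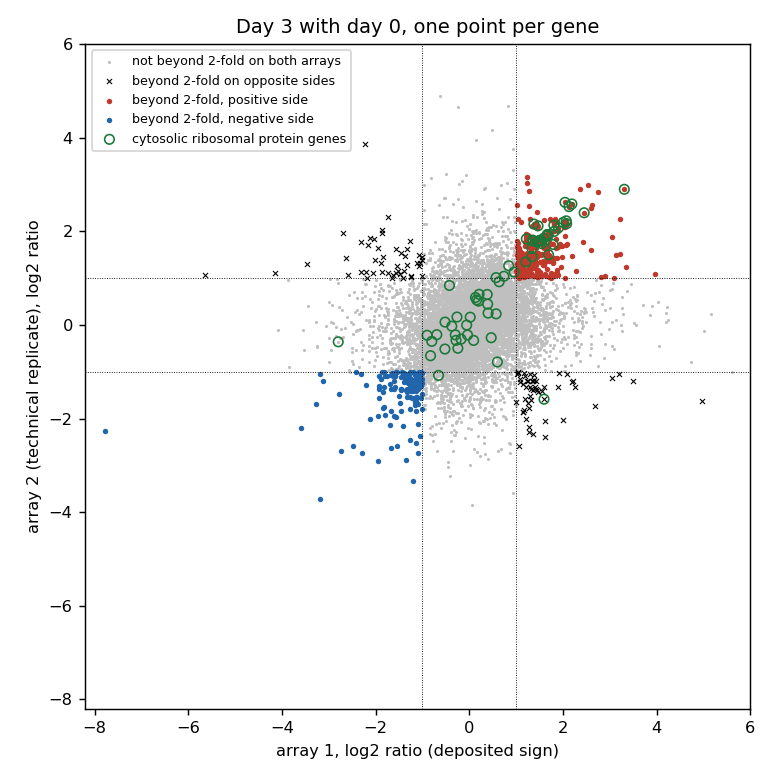
Log2 ratio of each gene on the first day 3 array (horizontal axis) and on its technical replicate (vertical axis), deposited sign. Red points are the 243 genes beyond 2-fold on the positive side of both arrays, blue points the 141 on the negative side, crosses the 102 on opposite sides, and green rings the 66 cytosolic ribosomal protein genes, many of which lie along the diagonal in the upper right.

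A stricter reading used single spots. Of 9212 genes with 2 spots and all 4 values present, 99 (1.07%) had every spot on both arrays beyond 2-fold on the positive side and 28 (0.304%) on the negative side, a rule added after the data were seen. Of the 255 called genes with 4 such values, 127 met it. Below, the values of single spots are given for many of the genes the results turn on.

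Ribosomal protein genes had more positive calls than any other of the gene lists. Of 66 measured genes for proteins of the cytosolic ribosome, 31 (47.0%) were called on the positive side, against 1.77% of all genes, and 0 on the negative side. They were 12.8% of all positive calls; without them, 212 genes or 1.55% of the remaining genes were called there. The large subunit had 19 of 42 genes called and a median log2 ratio of 0.916, and the small subunit 12 of 24 and a median of 1.14, where the median of all genes was 0.0052. Among the brightest 25% of genes, the 30 large subunit members had a median of 1.62.

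The values of the family ran from -1.58 to 3.10. Divided by the call itself, which sets the groups apart by construction, the 31 called genes had a median of 1.78 and the 35 others a median of -0.0298. On both arrays 45 of the 66 were above 0 and 14 below 0, and 7 had arrays of different sign. Of all 13707 genes, 4503 were above 0 on both arrays and 4365 below. The called genes were also the brighter ones, with a median brightness percentile of 89.7 against 76.7, yet 18 of the uncalled genes lay in the brightest 25% too. Brightness moved with the call, and its part in it was not tested.

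**Figure D2:**
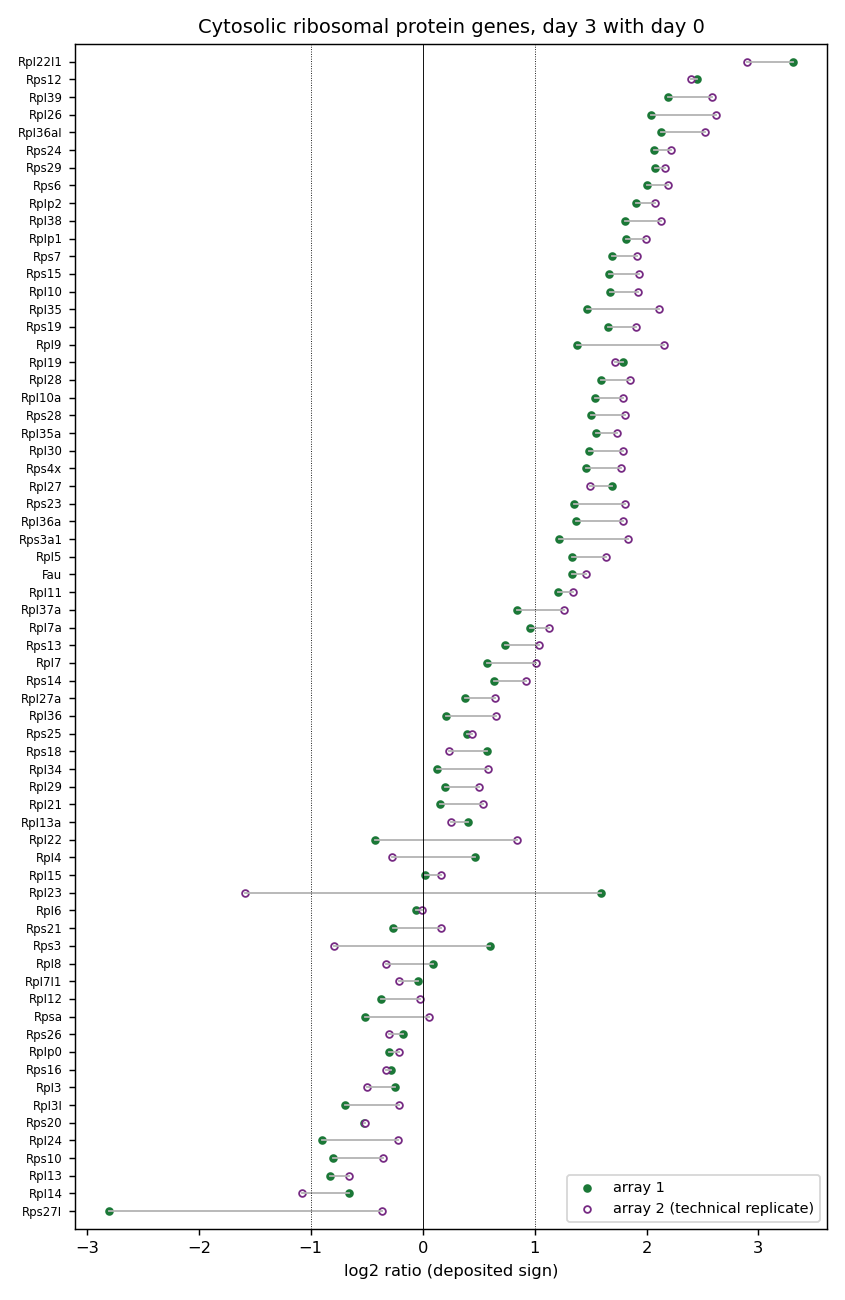
Log2 ratio of the 66 cytosolic ribosomal protein genes on the first day 3 array (filled) and its technical replicate (open), ordered by mean. From Rpl11 upwards, 31 genes lie beyond the dotted 2-fold line on both arrays, and 14 genes lie below 0 on both.

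Rpl22l1, the paralog of Rpl22, had the highest mean of any gene in the family, with 3.31 on the first array and 2.90 on the second (8.6-fold). Its 4 spot values ran from 2.77 to 3.31, so no spot came near the limit. Rpl22 itself gave -0.42 and 0.84, and the arrays did not agree on its side. Rps12 followed at 2.45 and 2.40, and Rpl39 at 2.19 and 2.58. Rps6, the small subunit protein phosphorylated downstream of mTOR, gave 2.005 and 2.19.

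The stalk of the large subunit, which recruits the elongation factors, had members on both sides. Rplp1 gave 1.81 and 1.997 and Rplp2 gave 1.91 and 2.08, while Rplp0, to which both bind, gave -0.30 and -0.21. Other uncalled members on the negative side were Rpl14 at -0.66 and -1.08, Rpl13 at -0.83 and -0.66, and Rps20 at -0.52 and -0.52. These were not beyond 2-fold on both arrays, but they lay on the opposite side from most of the family on each array. Rpl23 was the single member called on opposite sides, at 1.60 and -1.59.

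In 27 of the 31 called genes the second array gave the higher value. Of 56 family members with 4 spot values, 29 had all of them beyond 2-fold on the positive side and 0 on the negative side, beside 1.07% and 0.304% of all genes. Rpl35a was spotted under 2 accessions that differed. The spots of the first gave 2.28 and 2.56 on the first array and 2.60 and 2.47 on the second, and those of the other gave 0.65 and 0.69, then 0.87 and 0.9962. Ribosomal protein genes have many processed pseudogenes with near-identical sequence, and the spots may not separate them, so a value can include related transcripts.

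Transcripts of ribosomal proteins typically begin with a run of pyrimidines, the terminal oligopyrimidine tract, through which mTOR controls their translation. Start regions are therefore shown of 4 called genes that hold the letters searched and of 4 genes far from 0 that do not, from RefSeq promoters of GRCm38.p6, each with 40 bases before the annotated start and 20 from it on. Capitals mark CTTTCC or CTCTTT, the letters searched on the gene's strand within 20 bases of the start. Where the motifs overlap, as in Rpl28 and Rpl35, the capitals run together. The letters do not cover every run of pyrimidines. Without them, Rpl22l1 holds ttctcttccc, Rps12 ccttttcccct and Eef1a1 ccctcttccc in the printed regions. A gene without capitals is therefore not shown to lack the tract.
Rps6: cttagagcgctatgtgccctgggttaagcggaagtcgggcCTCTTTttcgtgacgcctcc
Rpl38: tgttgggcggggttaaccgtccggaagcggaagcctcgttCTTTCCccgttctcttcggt
Rpl35: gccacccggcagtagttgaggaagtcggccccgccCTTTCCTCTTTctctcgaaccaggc
Rpl28: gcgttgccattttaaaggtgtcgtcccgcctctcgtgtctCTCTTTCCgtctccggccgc
Rpl22l1: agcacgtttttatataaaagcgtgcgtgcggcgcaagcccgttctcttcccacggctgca
Rps12: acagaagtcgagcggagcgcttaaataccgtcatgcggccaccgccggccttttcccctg
Ptma: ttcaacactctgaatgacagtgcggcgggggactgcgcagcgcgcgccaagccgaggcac
Eef1a1: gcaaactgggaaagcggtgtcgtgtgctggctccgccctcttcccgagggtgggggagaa
Rps6 lies on the minus strand at chr4:86857348-86857407, Rpl38 on the plus strand at chr11:114668540-114668599, Rpl35 on the minus strand at chr2:39005112-39005171 and Rpl28 on the plus strand at chr7:4792925-4792984. Rpl22l1 lies on the plus strand at chr3:28805468-28805527, Rps12 on the minus strand at chr10:23787190-23787249, Ptma on the plus strand at chr1:86526517-86526576 and Eef1a1 on the minus strand at chr9:78481705-78481764.

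These letters were found in 12 of the 55 ribosomal protein genes with a promoter in the table (21.8%), beside 3.61% of all measured genes and 3.86% of the 27025 genes of the table. The called genes held them in 7 of 28 and the uncalled in 5 of 27. The called holders were Fau, Rpl28, Rpl35, Rpl35a, Rpl38, Rpl5 and Rps6. CGGAAG, the core bound by ETS factors, was searched on both strands of the whole window of 300 bases and was found in 65.5% of the family, in 57.1% of its called and 74.1% of its uncalled genes, and in 26.5% of all measured genes. AAGATGG, the letters of a YY1 site, were found on either strand in 16.4% of the family and 7.79% of measured genes, and the octamer ATTTGCAT in 0 of 55 and 1.74%. These are counts of letters, not of pyrimidine tracts, and describe neither binding nor a cause.

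Other lists of protein synthesis had fewer calls than the cytosolic ribosomal protein genes. The medians of 26 of the 57 lists changed sign under an alternative processing that kept both arrays, so a median near 0 is given below as a value without a side. Mitochondrial ribosomal proteins, made for a separate ribosome, had 3 positive (4.41%) and 2 negative calls (2.94%) among 68 measured. All genes had 1.77% and 1.03%, and the list median was 0.0578. Mrps36, whose name alone does not show that it is part of that ribosome, gave 2.18 and 1.48. Mrps5 gave 1.60 and 1.27, and Mrps18a, on the other side, gave -3.60 and -2.20. Initiation factors had 1 positive and 1 negative call among 35 (2.86% each) and a median of -0.155, with Eif3j1, a subunit of eIF3, at -1.24 on both arrays. Of 18 aminoacyl-tRNA synthetases 1 was called positive, Iars, which charges isoleucine, at 1.59 and 1.91, and 0 negative; their median of 0.321 was -0.215 over the 4 brightest. Of 38 nucleolar and ribosome assembly genes 4 were called positive (10.5%, beside 1.77% of all genes) and 1 negative, at a median of 0.0299. Among the positive calls was Imp4, a factor of small subunit processing, at 1.58 and 1.67. The nucleolar chaperone Npm1 was called negative at -1.21 and -3.33, but on spots of -1.73 and -0.69 on the first array and a single spot on the second.

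Eef1a1, the factor that delivers aminoacyl-tRNA to the ribosome, lay far on the negative side, at -2.48 and -2.59 (5.8-fold). It was spotted under 2 accessions, and their 7 spot values ran from -3.92 to -0.65. The pseudogene Eef1a1-ps1 gave -3.18 and -3.71, and since its sequence is close to that of the parent gene, which transcript those spots measured cannot be told apart. Tpt1, a binding partner of the elongation factor, was called on the positive side at 1.45 and 2.06. Eef1b2 and Eef1g, subunits of the exchange factor for Eef1a1, gave 0.51 and 1.28, and 0.38 and 0.71. Eef2, which moves the ribosome along the message, gave 0.11 and -0.32. In all, elongation and release factors had 1 positive and 1 negative call among 17 (5.88% each, beside 1.77% and 1.03% of all genes).

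Ptma and Ppia lay far on the positive side. Ptma, the acidic nuclear protein prothymosin alpha, gave 2.74 and 2.85 (6.94-fold), and its 4 spots lay between 2.70 and 2.90. Ppia, cyclophilin A, gave 2.62 and 2.56 with spots from 2.55 to 2.62. Ppia is often used as a reference gene. The prothymosin, thymosin and HMG list had 2 positive calls among 14 (14.3%, beside 1.77% of all genes), Ptma and the nucleosome-binding protein Hmgn1 at 1.05 and 1.51, and a median of 0.103. Ptms, a relative of Ptma, gave -0.41 and -0.60. Cyclophilins and other prolyl isomerases had 1 call among 22, Ppia itself.

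Hspe1, the mitochondrial cochaperonin, gave 2.02 and 2.10, while its partner Hspd1 gave -0.58 and -1.13. These genes are transcribed from a shared promoter in opposite directions, and their ratios lay on opposite sides on both arrays. Of 54 chaperones and chaperonins, 2 were called positive (3.7%) and 1 negative (1.85%), beside 1.77% and 1.03% of all genes, with a median of -0.111. Hspa1a, the inducible form of Hsp70, was called positive at 1.11 and 1.09, and Dnajc3, an inhibitor of the kinase PERK, negative at -1.32 and -1.43. Of the 9 subunits of the cytosolic chaperonin CCT, 0 were called.

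Tubulin genes Tuba1a and Tuba1b gave 1.84 and 2.25, and 1.93 and 1.74, with all 8 spots beyond 2-fold. Tbca, which holds beta-tubulin during folding, gave 2.42 and 1.78. The alpha-tubulin genes are near-identical in coding sequence and may not be separated by the spots. The beta-tubulin Tubb5 lay on the other side at -0.30 and -1.22, below the limit on the first array. In all, 3 of 34 actin, tubulin and regulator genes were called positive (8.82%, beside 1.77% of all genes) and 0 negative.

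Splicing genes were called on both sides, 4 positive (5.97%) and 2 negative (2.99%) among 67, beside 1.77% and 1.03% of all genes. Their median was -0.0264. Of the 7 Sm proteins, which form the ring of the spliceosomal particles, 6 were above 0 on both arrays and 2 called. The share over all genes was 4503 of 13707 above 0. The Sm proteins were not among the planned sets and were counted separately. Snrpe gave 1.73 and 2.26 and Snrpg gave 1.37 and 1.71. Snrpc, a protein of the U1 particle, was called on the negative side at -1.15 and -1.84. Hnrnpa1, a regulator of splice site choice, gave -0.62 and -0.90. Proteasome subunits had no call on either side among 41 measured, at a median of -0.0732.

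**Figure D3:**
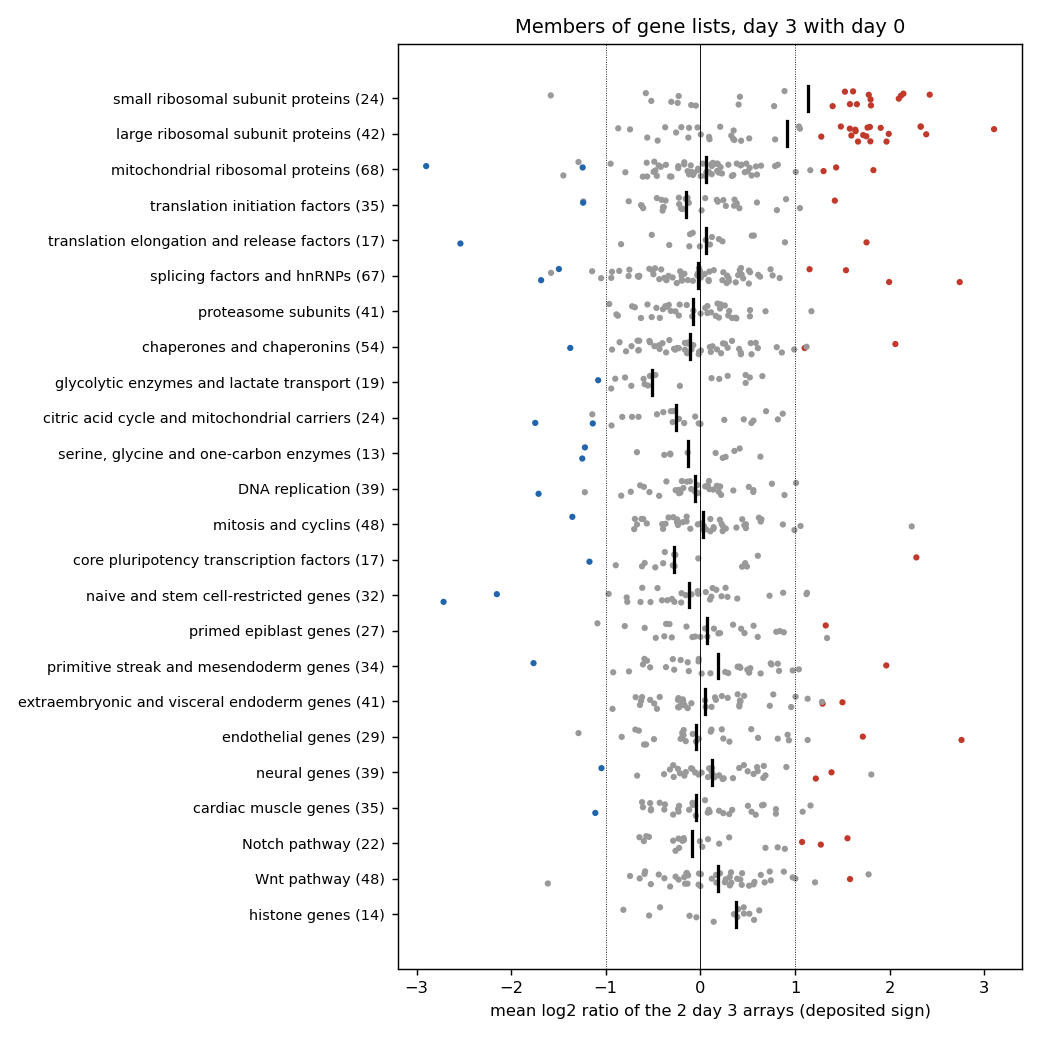
Mean log2 ratio of the members of 24 gene lists, 1 point per gene, with the number measured in brackets and the list median as a black bar. Red points are beyond 2-fold on the positive side of both arrays, blue points on the negative side and grey points are not called; the ribosomal protein medians are 0.916 and 1.14, and that of the glycolytic genes is -0.51.

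Of 32 measured genes of the naive stem cell state, 2 were called negative and 0 positive, beside 1.03% and 1.77% of all genes. Below 0 on both arrays were 13 and above were 6, beside 4365 and 4503 of all 13707 genes. The median was -0.123, and -0.34 over the 6 members among the brightest 25% of genes. Dppa5a, a stem cell-restricted RNA-binding protein, gave -2.74 and -2.69 (6.56-fold), with spots of -1.99 and -3.50 on the first array and -2.15 and -3.23 on the second. The other called member was Zfp296, whose mean of -2.15 rests on uneven spots, 0.25 and -3.60 on the first array and -2.63 with a missing value on the second.

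Most of the naive markers moved less than 2-fold. Zfp42, also known as Rex1, gave -0.77 and -0.79 with 4 spots from -0.93 to -0.65, so its side was repeatable although it was not called. Klf4 gave -0.41 and -0.40, and Fgf4, a target of Oct4 and Sox2, gave -0.48 and -0.22. Each spot of Fgf4 changed sign between the arrays, 0.29 and -0.93, and -1.255 and 0.49. Esrrb gave -0.26 and -1.28, a gap of more than the SD of an array. Fbxo15, another Oct4 target, gave -0.73 and -1.21. Klf2 at -0.06 and 0.18 and Tbx3 at 0.35 and 0.18 did not follow them, nor did Dppa3, with 0.65 and -0.70.

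Of the core pluripotency factors, 11 of 17 were below 0 on both arrays and 5 above, beside 4365 and 4503 of all 13707 genes. Their median was -0.277, with 1 positive and 1 negative call (5.88% each, beside 1.77% and 1.03% of all genes). The median was 0.101 over the 4 bright members, so the side of this list depends on which members are counted. Sall4, a zinc finger partner of Oct4, was called negative at -1.12 and -1.22, although its spots spread from -1.71 to -0.74. Pou5f1 gave -0.79 and -1.002 and just missed the limit on the first array. Its 3 spot values were -0.79 on the first array and -0.07 and -1.93 on the second. Nanog gave -0.74 and -0.22 and Sox2 -0.16 and -0.59. The single positive call was Tcf3, at 3.34 and 1.23 with spots from 0.23 to 5.50. That symbol now stands for the E2A proteins, and the stem cell repressor formerly given the same name, Tcf7l1, gave 0.41 and 0.48.

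Genes of the LIF pathway, which holds the undifferentiated state in culture, had no call on either side among 21. Over all genes 1.77% were called positive and 1.03% negative. Their median was 0.235, with -0.0348 on the first array and 0.33 on the second. On both arrays 8 members were above 0 and 1 below, beside 4503 and 4365 of all 13707 genes. The member below 0 was Socs3, a direct target of Stat3, at -0.27 and -0.17, and the receptor Lifr gave 0.31 and 0.40. Stat3 itself gave -1.57 and 0.29, so its arrays disagreed.

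Primed epiblast genes had 1 positive call among 27 (3.7%, beside 1.77% of all genes) and a median of 0.0746. The call was Dnmt3b, a de novo DNA methyltransferase that epiblast cells carry at high level, at 1.07 and 1.58 (2.5-fold), and all 4 of its spots were beyond 2-fold. Its relative Dnmt3a gave 2.16 and 0.52, and Dnmt3l, their cofactor without catalytic activity, gave 0.35 and -0.95. Fgf5 gave 0.09 and 0.29. Otx2 and Pou3f1 had a value on a single array, 0.64 and -1.03. On the negative side lay Spry4 at -0.82 and -0.78 and Etv5 at -0.73 and -0.44, both targets of FGF signalling, without passing the limit.

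**Figure D4:**
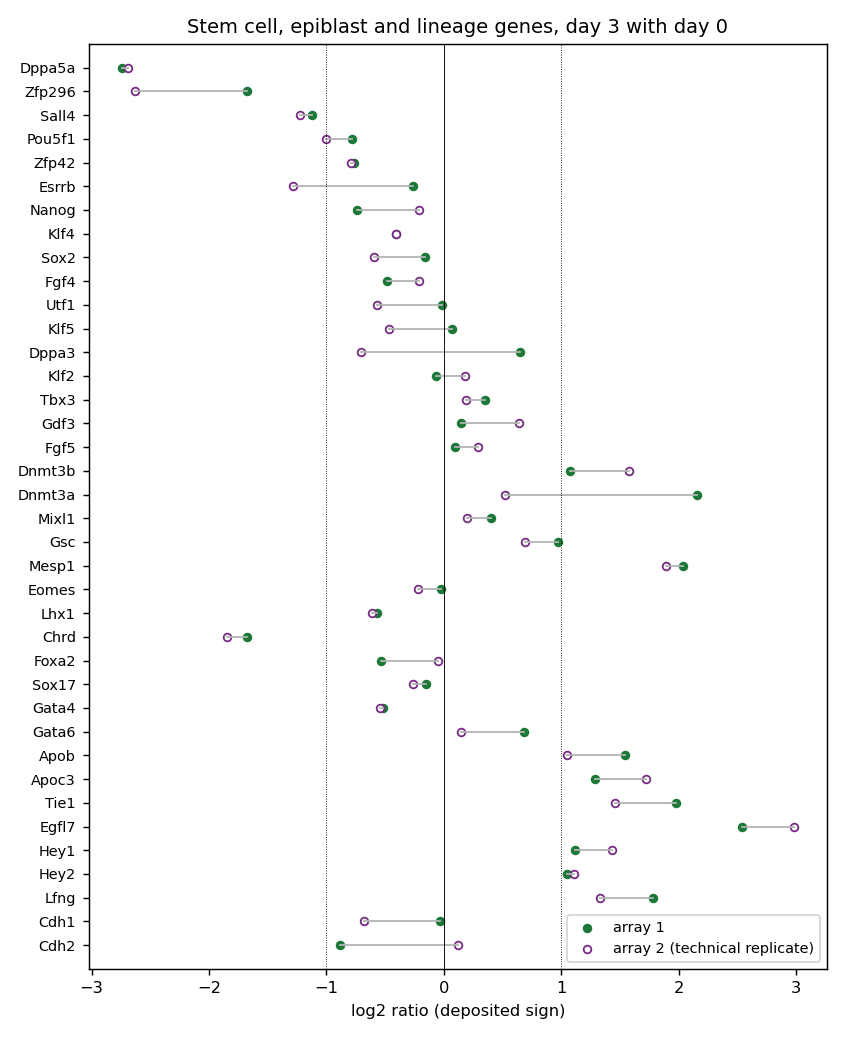
Log2 ratio of stem cell, epiblast and lineage genes on the first day 3 array (filled) and its technical replicate (open). Dppa5a, Zfp296, Sall4 and Chrd lie beyond the dotted 2-fold line on the negative side of both arrays. Dnmt3b, Mesp1, Apob, Apoc3, Tie1, Egfl7, Hey1, Hey2 and Lfng lie beyond it on the positive side of both.

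Among primitive streak and mesendoderm genes 1 of 34 was called positive and 1 negative (2.94% each), beside 1.77% and 1.03% of all genes. Mesp1, which marks nascent cardiac and cranial mesoderm, gave 2.04 and 1.89 (3.91-fold), from spots of 1.93 and 2.15 and a single spot of 1.89 on the second array. Chrd, a secreted inhibitor of BMP made by the organiser, gave -1.68 and -1.85, with every spot beyond 2-fold. They lay on opposite sides. Goosecoid (Gsc) gave 0.97 and 0.69, Kdr 0.70 and 0.94 and Mixl1 0.40 and 0.19, on the side of Mesp1 and below 2-fold. The first-array value of Gsc averaged spots of -0.70 and 2.64, which disagreed on its side. Eomes at -0.03 and -0.22, on spots from -0.38 to 0.33, and Lhx1 at -0.57 and -0.62 lay on the other side. T and Lefty2 were on no named spot, and Nodal had a value of 1.96 on the first array alone.

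Endothelial genes had 2 positive calls among 29 (6.9%, beside 1.77% of all genes) and a median of -0.0457. Egfl7, a secreted protein of endothelial cells, gave 2.54 and 2.98 (6.77-fold), with 4 spots from 2.49 to 3.05. Tie1, a receptor tyrosine kinase of endothelial cells, gave 1.97 and 1.46, with all 4 spots beyond 2-fold between 1.06 and 2.89. Other defining members were not called: Cdh5 gave 0.18 and 0.04, Tek 0.02 and -0.18, Pecam1 0.10 and -0.41 and Flt1 -0.69 and -0.68.

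In the Notch pathway 3 of 22 genes were called positive (13.6%, beside 1.77% of all genes) and 0 negative, with a median of -0.0891. Lfng, a glycosyltransferase that tunes Notch receptors, gave 1.78 and 1.33, and the target Hey1 gave 1.12 and 1.43. Both rest on 1 spot per array. The third was Hey2 at 1.04 and 1.11, whose spots on the first array were 2.89 and -0.81. All of these genes were dim, at brightness percentiles of 0.46, 10.8 and 21.1.

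Visceral endoderm genes had 2 positive calls among 41 (4.88%, beside 1.77% of all genes). Apoc3 gave 1.28 and 1.72 and Apob gave 1.54 and 1.05, both apolipoproteins and both on dim spots, at brightness percentiles of 5.81 and 4.77. The factors that define the lineage were not called, with Gata6 at 0.68 and 0.15, Gata4 at -0.52 and -0.54, Sox17 at -0.16 and -0.26 and Afp at -0.02 and -0.31. Spots of Sox17 disagreed on its side, at 0.72 and -1.03 on the first array and 1.035 and -1.555 on the second. Neural genes had 2 positive calls (5.13%) and 1 negative call (2.56%) among 39, beside 1.77% and 1.03% of all genes. The positive calls were Syt1 at 1.41 and 1.36 and Neurog2 at 1.08 and 1.36, and the negative call was Mapt at -1.08 and -1.01. The cardiac list had 1 negative call among 35 (2.86%, beside 1.03% of all genes), Tnnc1 at -1.18 and -1.04. Myh6, Tnnt2, Actc1 and Nkx2-5 were not called. The imprinted zinc finger gene Plagl1 gave 1.70 and 1.71, and the trophoblast factor Tfap2c 1.45 and 1.45, each the single call of its list. These were 2.78% and 5.56% of their lists, beside 1.77% of all genes.

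The label was read against markers of each cell type. Of 8 markers of undifferentiated cells, 6 lay below 0 on both arrays, 1 above and 0 were called. Over all 13707 genes, 4365 lay below 0 on both arrays and 4503 above. The 3 endothelial markers lay above 0 on both arrays, but the endothelial list had 11 members above and 10 below. Of the 5 endoderm markers 4 lay below 0, while the visceral endoderm list had 15 above and 15 below. Of 4 primed epiblast markers 2 were measured on both arrays, and these 2 lay above 0, 1 of them called. Of 5 primitive streak markers 4 were measured, 3 above 0 and 1 below, with 1 called positive. The 3 neural markers had 1 above and 1 below, and the 4 cardiac markers 1 above and 2 below. Only 1 of 3 trophoblast markers was measured, and it lay above 0. Among markers of cells not named in the labels, the leukocyte marker Ptprc gave -2.31 and 0.27, and the fibroblast markers Col1a1, Thy1 and Pdgfrb gave -0.01 and 0.17, -0.15 and 0.14, and -0.17 and -0.89. Cd68 was not measured on both arrays. A ratio gives no level, so the presence of a cell type cannot be read from these values. The leukocyte list had 0 positive and 2 negative calls among 34 (5.88%, beside 1.03% of all genes). They were Cd3e at -7.79 and -2.27, the most negative gene of the data, on spots of -9.38, -6.20 and -2.27, and complement factor Cfb at -3.27 and -1.70.

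Glycolytic enzymes and lactate transporters had a median of -0.51, the lowest of the lists over both arrays together. Below 0 on both arrays were 10 of 19 members and above were 5, beside 4365 and 4503 of all 13707 genes. The arrays alone gave -0.288 and -0.416, and the 4 members among the brightest 25% of genes gave -0.111; on the first array the naive list was lower, at -0.315, and in the brightest genes the one-carbon list, at -0.784. The single call was Pgk1, which makes the first ATP of glycolysis, at -1.004 and -1.16 (5.26% of the list, beside 1.03% of all genes). Ldha, which reduces pyruvate to lactate, gave -1.05 and -0.83, Aldoc -0.88 and -0.92 and Pgam1 -0.58 and -1.01. Tpi1 at 0.06 and 0.98 and the lactate exporter Slc16a3 at 0.50 and 0.81 lay on the other side.

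Gapdh, often spotted as a reference, was represented by 464 spots and gave -0.76 and -0.70. Its spots had medians of -0.83 and -0.77, and 90.1% and 92.7% of them were below 0. The gene thus lay on the negative side of both arrays, at less than 2-fold. Actb, another common reference, gave 0.05 and 0.26.

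In the mitochondrion, 2 of 24 citric acid cycle and carrier genes were called negative (8.33%, beside 1.03% of all genes) and 0 positive. The median was -0.254, with -0.15 and -0.162 on the single arrays and -0.554 over the 6 brightest members. Idh3b, a subunit of the NAD-dependent isocitrate dehydrogenase of the cycle, gave -1.05 and -1.22, and Suclg2, a subunit of succinyl-CoA ligase, gave -1.93 and -1.56, on uneven spots of -1.93 on the first array and -3.43 and 0.32 on the second. The pyruvate dehydrogenase subunits Pdha1 and Pdhb lay on the positive side at 0.67 and 1.07, and 0.29 and 0.83. Atp5a1, the alpha subunit of ATP synthase, was called negative at -1.23 and -1.32, with 4 spots from -1.39 to -1.21. It was the single call among 13 complex V subunits (7.69%, beside 1.03% of all genes), and complex I had no call among 27. Among 15 complex IV subunits, Cox7a2 was called positive at 1.08 and 1.37 and Cox6b1 negative at -1.34 and -1.40. That is 6.67% on each side, beside 1.77% and 1.03% of all genes.

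Of 13 enzymes of serine, glycine and one-carbon metabolism, 2 were called negative (15.4%, beside 1.03% of all genes) and 0 positive. Shmt2, the mitochondrial enzyme that splits serine into glycine and a one-carbon unit, gave -1.28 and -1.22, and its 4 spots lay between -1.34 and -1.18. Gcsh, the carrier protein of the glycine cleavage system, gave -1.42 and -1.02 on spots from -2.32 to -0.52. The list median was -0.134, with -0.361 on the second array and -0.784 over the 2 brightest members.

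In the following signalling and chromatin lists, calls are set beside the shares of all genes, 1.77% positive and 1.03% negative. The Wnt list had 1 positive call among 48 (2.08%), the ligand Wnt7a at 1.75 and 1.42, and a median of 0.189. The FGF list had 1 negative call among 32 (3.12%), the receptor Fgfr3 at -1.54 and -1.003, the latter with spots of -1.09 and -0.92. Crabp2, which carries retinoic acid to its receptor, was the single call among 17 genes of its list (5.88% negative), at -1.40 and -1.04. Polycomb and chromatin remodelling genes had no call on either side among 42, and histone genes none among 14, with medians of -0.141 and 0.373. With lists of this size, an absence of calls is not read as a result. In the dimmest 25% of genes the SD of an array was 0.823. No limit of detection was computed, and differences among dim genes can be missed.

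Of 54 matrix and integrin genes 3 were called positive (5.56%, beside 1.77% of all genes) and 0 negative. They were P4ha1, which hydroxylates collagen, at 1.24 and 3.16, the collagen crosslinking enzyme Loxl2 at 1.26 and 1.19, and the protease inhibitor Timp1 at 1.24 and 1.04. The mean of P4ha1 on the second array came from unequal spots of 5.16 and 1.16, and Loxl2 had a spot at -0.20 on that array. Among 44 cadherin, claudin, connexin and desmosome genes, the connexin Gja4 was called positive at 1.26 and 1.92. The plakophilin Pkp4 was called negative at -1.26 and -2.45, on 1 dim spot per array at a brightness percentile of 0.423. The metallothionein, antioxidant and iron list also had 1 call on each side among 44, in both lists 2.27% beside 1.77% and 1.03% of all genes. Prdx1, a peroxiredoxin, gave 1.22 and 1.95 with all 4 spots beyond 2-fold, and its pseudogene Prdx1-ps gave 2.08 and 1.73. Txnrd1, the cytosolic thioredoxin reductase, gave -1.95 and -1.96, although its spots ran from -3.42 to -0.49.

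Most calls lay outside every list, 165 on the positive side and 109 on the negative side. Among those with arrays close together, Fmod, the matrix proteoglycan fibromodulin, gave 1.88 and 2.19, with 4 spots from 1.87 to 2.20. Auh, a mitochondrial enzyme of leucine breakdown that also binds AU-rich RNA, gave 1.801 and 2.15. The haemoglobin alpha pseudogene Hba-ps3 gave 2.05 and 2.10. These had every spot beyond 2-fold. On the other side, the F-box gene Fbxo24 gave -2.30 and -2.74 and Wdr64 gave -2.12 and -2.004, also with every spot beyond 2-fold. The share of genes called on either side ran from 1.8% on chromosome 5 to 4.41% on chromosome 19 among the autosomes, and was 3.8% on the X chromosome.

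The same genes on the day 10 arrays are shown for reference, since those arrays were hybridised with day 0 RNA as well. Both experiments share that RNA, so only their values are set side by side. At day 10, 2.15% of 13199 measured genes were called positive and 1.39% negative, together 3.54%. Ptma gave -1.85 and -1.09 at day 10 against 2.74 and 2.85 at day 3, and Rpl22l1 gave -0.94 and -0.49 against 3.31 and 2.90. The large and small subunit lists had medians of -0.278 and -0.32 at day 10. Egfl7 lay on the positive side at 1.02 and 2.11, and Eef1a1 on the negative side at -3.48 and -3.67. Dppa5a gave 0.41 and -2.85, so its day 10 arrays disagreed. Mesp1 had a single day 10 value, 1.55, and Dnmt3b gave 0.11 and -0.43.

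**Figure D5:**
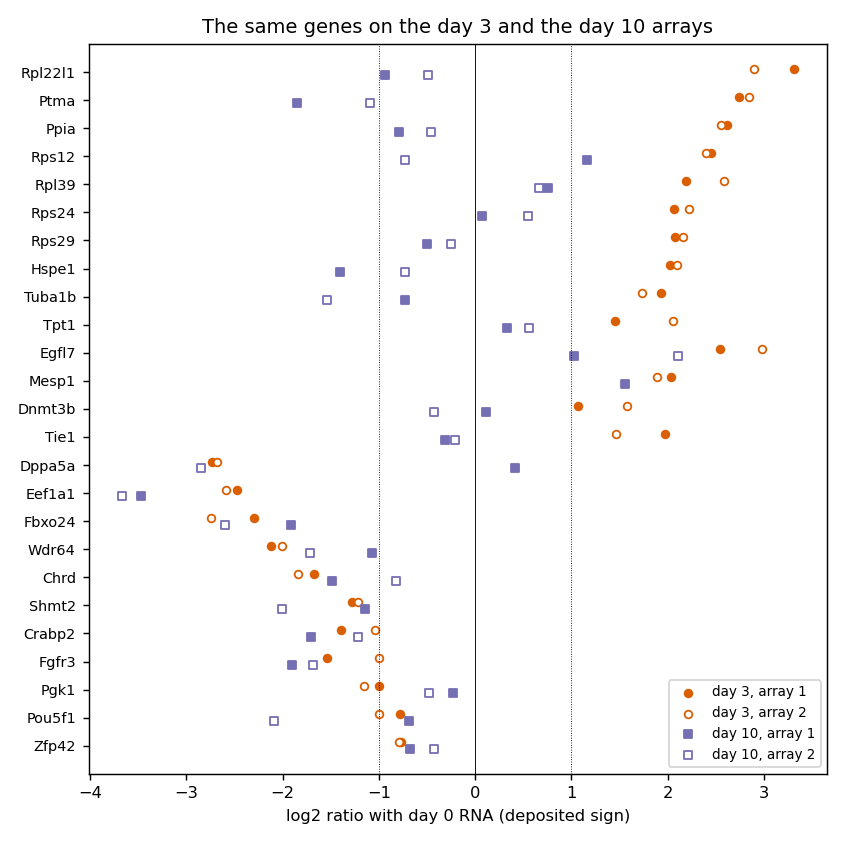
Log2 ratio with day 0 RNA of the same genes on the day 3 arrays (orange circles) and the day 10 arrays (purple squares), first array filled and technical replicate open, deposited sign. Ptma lies beyond 2-fold on the positive side of both day 3 arrays and on the negative side of both day 10 arrays. Eef1a1, Fbxo24 and Chrd are among the genes on the negative side of all 4.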

How the data were processed

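The deposited table holds 1 value per spot and array, a log2 ratio of the channels made by the authors; how scanning, background, dyes and normalization were handled is a matter not given in the sources used here. The base was checked on the values: among 5000 values of the first array, 5.76% were ratios of small whole numbers in base 2 and 0.06% in base e. Spots were named through GEO's platform annotation and the RefSeq gene table of GRCm38.p6. There were 32544 spots with 1 symbol, 588 with several and 12996 with none; 480 control spots from 5 accessions were left out, and 32064 spots stood for 14386 genes. Arrays were centred on their medians (-0.0293 and -0.0302), and spots averaged per gene.

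No test was run. The members and the 57 gene lists were chosen with earlier results of these data known. Named genes were the 15 largest and 15 smallest called means with arrays within 0.5 and the 8 largest and 8 smallest of any, at most 3 per family and without RIKEN or predicted names, up to 4 called members per list, a fixed set of stem cell, lineage and reference genes, and members of lists described. Tmem50b, Gbf1, Tfb2m and Rpl30-ps2 were named for lying next to the limit, and Prdx1-ps after its values were seen. The Sm proteins and the CCT subunits were counted as sets outside the planned rules. The alternatives were no centring, the median of spots, at least 2 spots, a common spread, the brightest 25% of genes, removal of a brightness trend in 50 bins, limits of 1.5-fold and 4-fold, the mean alone, and a single array. The 2-fold call and the recovery of whole-number ratios were also tested on simulated data, and the other steps were not. Python 3.11.15, numpy 2.4.6, pandas 2.3.3 and matplotlib 3.10.9 were used.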

Additional observations from a re-analysis of the deposited data

Results flagged for a closer look

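Values on opposite sides at the 2 days were picked out for genes beyond 2-fold on every array, and for lists whose 4 array medians all lay at least 0.1 from 0. The differences between days were not tested. Ptma had a mean of 2.795 at day 3 and -1.47 at day 10. Apoc3, on dim spots with 1 value per day 3 array, had 1.502 and -1.288. Another gene, 4930513L16Rik, a RIKEN name outside the rule for named genes and added after its values were seen, went the other way, at -1.42 and 1.29. The large ribosomal subunit list had a median of 0.916 at day 3 and -0.278 at day 10, and the small subunit list 1.14 and -0.32. The hypoxia-response list, on the negative side at day 3, had -0.293 and 0.123. Within it, Pgk1 was called negative at day 3, at -1.004 and -1.16. Higd1a, at 1.20 and 1.35, and P4ha1, at 1.24 and 3.16, were called positive. Hif1a, the oxygen-regulated factor itself, gave -1.15 and -0.93 on the day 3 arrays.

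Values beyond 2-fold also lay in spots without a gene name, which the gene counts leave out. Of 9902 unnamed spots with values on both day 3 arrays, 217 were beyond 2-fold on the positive side and 122 on the negative side. On opposite sides were 153, more than on the negative side, so technical error weighs heavily on these counts. They are single spots and not averages over a gene.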

How the results depend on the processing

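No paired analysis was possible because the labels give no replicate numbers and each day is 1 RNA pair with no test. The call counts depended on the rule. Positive and negative counts, 243 and 141, became 867 and 731 at a 1.5-fold limit, 17 and 7 at 4-fold, 640 and 452 with the limit on the mean alone, and 94 and 47 in the brightest 25% of genes. Positive calls with at least 2 spots numbered 161. The rule on all 4 spot values, added after the data were seen, gave 99 and 28. A single array gave 967 to 1123 positive and 746 to 834 negative genes, so the counts rest on having both. Opposite calls, 102, became 41 with at least 2 spots, 3 in the brightest genes, 510 at 1.5-fold and 2 at 4-fold. No centring gave 223 positive and 162 negative genes.

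No value changed side among the list medians that the text leads with. The large subunit median was 1.62 in the brightest genes and 0.9 to 1.07 on single arrays. The small subunit median was 1.55 with at least 2 spots, 1.6 in the brightest genes and 0.979 to 1.25 on single arrays. The glycolytic median was -0.111 in the brightest genes and -0.416 to -0.288 on single arrays; the naive median was -0.34 and -0.315 to -0.184. The cause was not tested. Of all 57 list medians, 26 changed sign in a setting that keeps both arrays and 22 on a single array, among them the endothelial, neural, streak and Notch lists, so those medians carry no side. Of 623 values of named genes under alternatives that keep both arrays, 594 moved by less than the SD of their arrays, 29 by more, and 0 changed sign. On a single array 7 genes changed sign, all of them uncalled: Klf2, Klf5, Dppa3, Dnmt3l, Cdh2, Eef2 and Rpl22.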
